A study of Homo sapiens with 4 samples.

Results

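WNT signalling genes were examined after silencing of PRR11 in ACHN, a widely used cell line from a human renal cell carcinoma. The 47 genes were chosen by name: secreted WNT ligands and the enzyme that acylates them, Frizzled receptors and coreceptors, Dishevelled proteins, the proteins that control β-catenin, TCF/LEF transcription factors, and inhibitors of the pathway. Earlier results of these data were known when the genes were chosen. Values were read for 46 of the 47 genes, out of 36359 genes in all, and FZD10 was not analysed here. The study asked how PRR11, a protein whose degradation it ties to the kinase GSK3β, acts on gene expression in renal cancer cells. RNA was sequenced from 2 libraries of cells transfected with a control siRNA (siNC) and 2 libraries of cells transfected with an siRNA against PRR11 (siPRR11), all grown in the same medium with serum. No untransfected cells were included, and neither the siPRR11 duplex of each library nor the time after transfection was found in the labels, so an effect of one duplex cannot be told apart from that of PRR11 loss. Nothing in the labels says whether the libraries of a group came from separate cultures, so p-values measure the spread between these libraries, which may be technical.

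WNT proteins are lipid-modified secreted ligands that bind Frizzled receptors together with LRP5 or LRP6. In the canonical branch, Dishevelled then stops a complex of AXIN, APC and GSK3 from marking β-catenin for destruction, and β-catenin enters the nucleus, where it works with TCF/LEF factors on target genes. Other branches run through Frizzled without β-catenin and act on cell polarity and movement. In the kidney the pathway is known for its part in nephron formation. RNA levels report on the parts of this machinery, not on the stability or location of β-catenin protein.

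The libraries held between 59003839 and 92612749 counted reads. PRR11, the silenced gene, had 41.3 and 40.4 CPM (read counts per library total after TMM normalization) in siNC and 15.3 and 14.0 in siPRR11, a log2 fold change of -1.48 ± 0.0909 (SE, adjusted p = 3.35e-06, edgeR's quasi-likelihood fit, adjusted over 21630 genes by Benjamini and Hochberg's method, as everywhere below unless another tool is named). The 4 libraries thus carried the PRR11 level that their labels give. Of the 7 renal and epithelial markers, PAX8, PAX2, KRT8, KRT18, EPCAM and VIM were expressed, while CDH6 was at 2 to 6 counts in each library. KRT18 rose by 0.36 and EPCAM fell by 0.65 on the log2 scale, and their part in the results below was not tested. Of the markers of other cells, PTPRC, CD3E, PECAM1 and CDH5 had between 0 and 8 counts per library, CD14 between 2 and 14 and ALB between 52 and 104. In bulk RNA, fewer cells that express a gene and less of its RNA per cell cannot be told apart.

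Of the 41 WNT genes with enough counts to be tested, 12 passed an adjusted p of 0.05: 10 fell and 2 rose. The share called was 29.3%, beside 16.7% of all genes tested, and beside 23.1% of genes whose log2 CPM averaged 1 or more, where 11 of 26 WNT genes passed. WNT genes called lower made up 24.4% of those tested, against 9.14% of all genes, and those called higher 4.88%, against 7.61%. The median log2 fold change was -0.238 over the WNT genes and 0.0022 over all genes tested, with 30 WNT genes below 0 and 11 above. The WNT genes were chosen with earlier results of these data known, so these shares and medians are descriptive. The libraries of siNC and siPRR11 did not overlap for 25 of the 41 genes, or 61.0%, close to the 58.4% of all genes, so that count did not set the WNT genes apart. Of the 10 genes that fell, LEF1 stood at 30.0% of its siNC level and the other 9 between 56.0% and 84.5%. Limma on the log2 of RPKM plus 1 or 0.1 kept WNT5B, FZD6 and LEF1 under both pseudocounts, and lost FZD1, FZD7, AXIN1, CTNNB1, TCF7L2, DKK3 and SFRP1 under both, DVL2 with 1 and TCF7 with 0.1, at adjusted p-values from 0.0509 to 0.192.

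**Figure D1:**
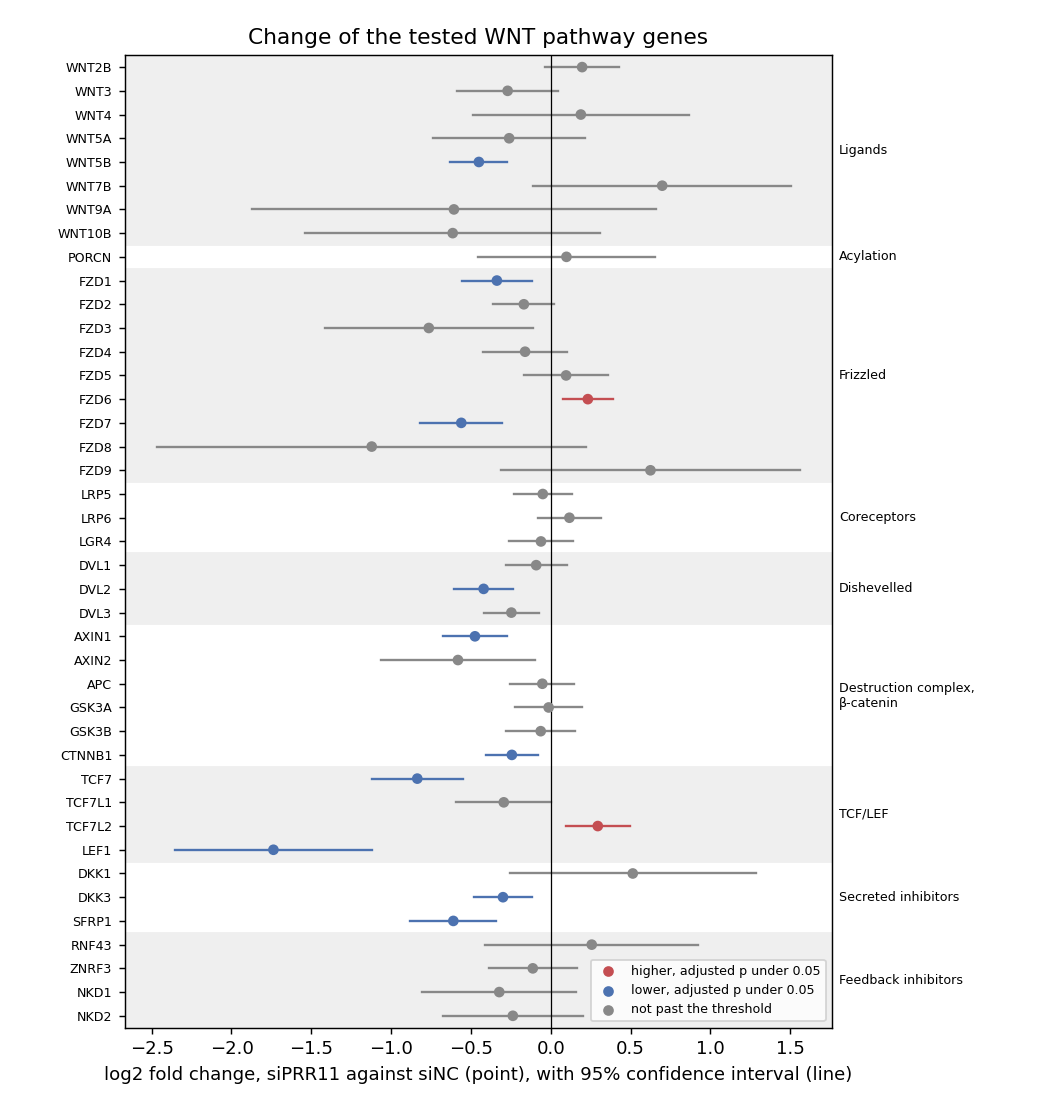
Each row is 1 of the 41 tested WNT genes, grouped by role. The horizontal axis is the log2 fold change of siPRR11 against siNC, points are estimates, and lines are 95% confidence intervals. The estimates run from -1.74 for LEF1 to 0.70 for WNT7B; the 10 genes called lower include members of the ligands, receptors, Dishevelled, destruction complex, TCF/LEF factors and secreted inhibitors, and the 2 called higher are FZD6 and TCF7L2.

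Among the ligands, WNT5B had the highest RPKM in these cells, and it fell. On the RPKM scale, which corrects for gene length, WNT5B made up 61.0% ± 3.04 (SD, n = 2) of the summed level of the 13 ligands in siNC, followed by WNT2B with 22.2% ± 2.37 and WNT3 with 11.3% ± 0.55. By CPM, without that correction, WNT2B had the higher mean, 43.0 against 40.2 in siNC and 49.2 against 29.4 in siPRR11. The ranking and shares thus rest on the exonic lengths used, 4305 bases for WNT5B and 12561 for WNT2B. WNT5B (chromosome 12, 1529891 to 1647243, plus strand, GRCh38 as in the files) encodes a ligand mostly described in β-catenin-independent signalling. Its CPM was 40.0 and 40.4 in siNC and 29.8 and 29.1 in siPRR11. All siPRR11 values lay below the siNC values, with little spread within a group, and the level in siPRR11 was 73.2% of that in siNC (log2 fold change -0.45 ± 0.0819, adjusted p = 0.00323). The gene stayed past the threshold under every alternative tried, including each library left out.

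WNT2B, the second ligand by RPKM, had 38.0 and 47.9 CPM in siNC and 47.2 and 51.2 in siPRR11, so the groups overlapped (log2 fold change 0.20, 95% interval -0.04 to 0.43, adjusted p = 0.242). It passed the threshold when siNC 2 was left out (0.37, adjusted p = 0.00573), and 21.2% of its exonic bases lie opposite exons of ST7L. The share of WNT5B in summed ligand RPKM was 52.7% ± 2.22 in siPRR11 and that of WNT2B 30.2% ± 0.945. The ratio of WNT5B to WNT2B RPKM within a library was 3.07 and 2.46 in siNC, against 1.84 and 1.66 in siPRR11. The summed ligand RPKM was 15.08 ± 0.84 in siNC and 13.18 ± 0.32 in siPRR11. These sums and ratios were not tested, and they contain WNT5B itself.

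WNT3, WNT4, WNT5A, WNT7B, WNT9A and WNT10B did not pass the test, with log2 fold changes between -0.61 and 0.70. All but WNT3 had mean levels under 3 CPM, and their confidence intervals were wide, for example -1.87 to 0.66 for WNT9A. WNT6, WNT7A, WNT10A, WNT11 and WNT16 had between 0 and 6 counts in each library and were not tested. At that depth no difference of these genes could be seen. PORCN, the acyltransferase that WNT ligands need for secretion, had 1.21 and 2.05 CPM in siNC and 1.63 and 1.81 in siPRR11 and did not pass the test (0.10, adjusted p = 0.836).

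**Figure D2:**
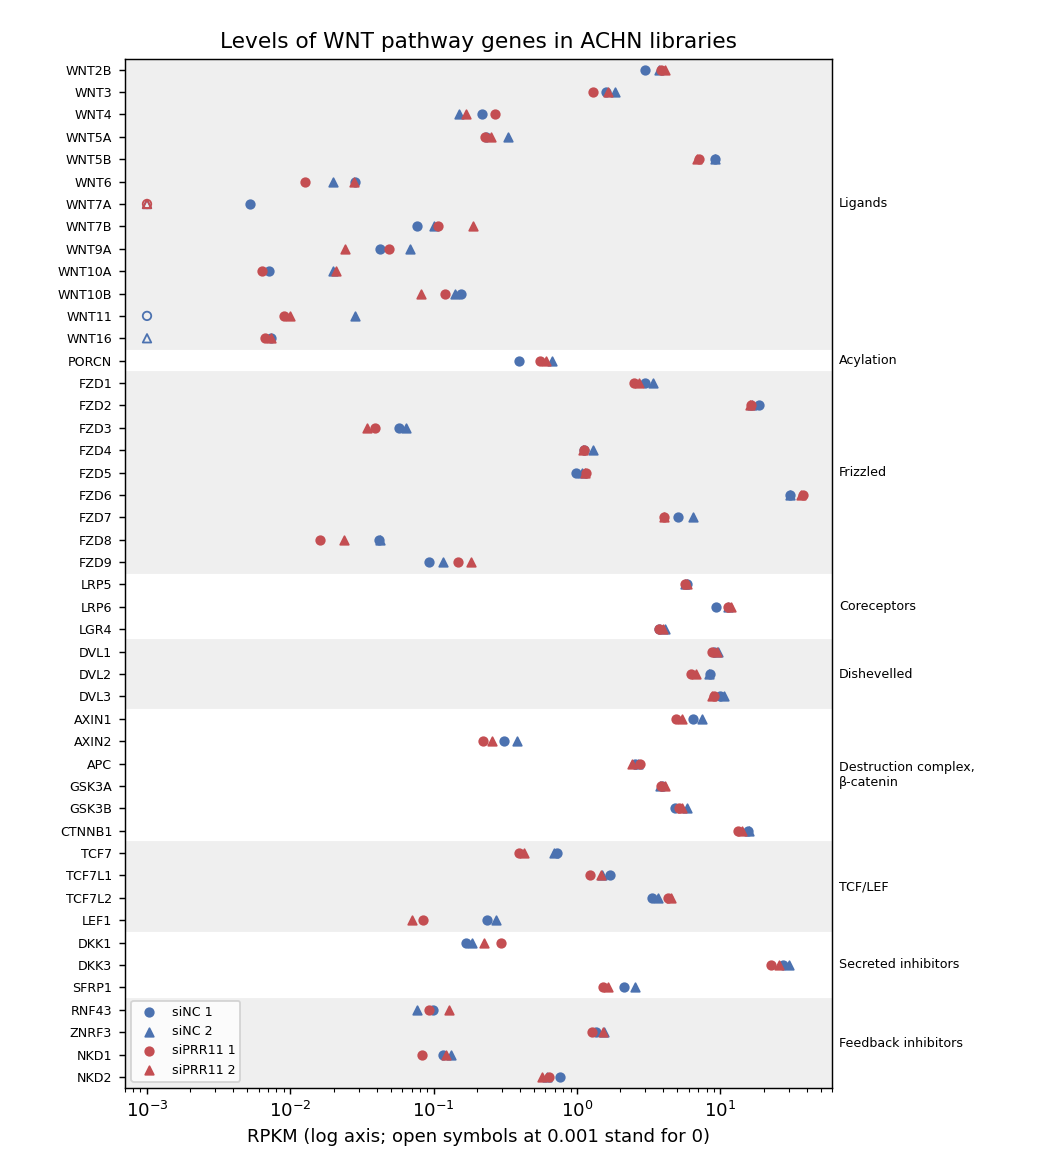
Each row is 1 of the 46 WNT genes and each symbol 1 library (circles replicate 1, triangles replicate 2; blue siNC, red siPRR11). The horizontal axis is the deposited RPKM on a log scale, with open symbols for values of 0. Mean siNC levels reach 30.6 RPKM for FZD6 and 28.8 for DKK3, while 5 ligands lie near 0.

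The 9 Frizzled receptors moved in both directions. FZD6 rose, FZD1 and FZD7 fell, and the other 6 did not pass the test. FZD6, a receptor known from planar cell polarity, carried most of the Frizzled RNA, with 51.3% ± 0.163 of the summed RPKM in siNC, followed by FZD2 with 29.5% ± 2.32, FZD7 with 9.68% ± 1.67 and FZD1 with 5.34% ± 0.446.

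FZD6 (chromosome 8, 103298433 to 103332866, plus strand) had 126.8 and 126.5 CPM in siNC and 150.5 and 147.0 in siPRR11. Both siPRR11 libraries were higher, at 117.5% of siNC (log2 fold change 0.23 ± 0.0707, adjusted p = 0.0430). The call was close to the threshold: the fold change was 0.23 (adjusted p = 0.0548) without siNC 2, 0.22 (0.299) without siPRR11 1 and 0.25 (0.200) without siPRR11 2. Opposite-strand exons of BAALC-AS1 cover 3.39% of its exonic bases.

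FZD7 (chromosome 2, 202034587 to 202038445, plus strand) had 19.9 and 25.5 CPM in siNC and 15.36 and 15.33 in siPRR11. The siNC libraries differed from each other, and both lay above the siPRR11 libraries (log2 fold change -0.56 ± 0.118, adjusted p = 0.0072, 67.8% of siNC). Leaving out siNC 2 gave -0.38 and leaving out siNC 1 gave -0.73, both past the threshold. FZD1 (chromosome 7, 91264364 to 91271326, plus strand) had 21.2 and 23.9 CPM in siNC and 17.1 and 18.6 in siPRR11 with no overlap (log2 fold change -0.34 ± 0.10, adjusted p = 0.0386). It was no longer past the threshold without siNC 2 (-0.25, adjusted p = 0.115), siPRR11 1 (-0.28, 0.303) or siPRR11 2 (-0.40, 0.0737). FZD1, FZD2 and FZD7 are close paralogs, and how reads matching more than 1 of them were counted is not given, so the split between them is uncertain.

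FZD2, the second receptor by level, had 39.9 and 35.8 CPM in siNC and 34 and 33.43 in siPRR11 and did not pass the test (-0.17, 95% interval -0.36 to 0.02). FZD3, FZD4, FZD5, FZD8 and FZD9 had log2 fold changes from -1.12 to 0.63, and FZD3, FZD8 and FZD9 were all under 1 CPM. The groups did not overlap for any of the 9 receptors, beside the 58.4% of all genes given above. The ratio of FZD6 to FZD7 RPKM was 6.05 and 4.71 in siNC and 9.30 and 9.10 in siPRR11, and the summed Frizzled RPKM was 59.67 ± 0.0515 in siNC and 62.54 ± 0.78 in siPRR11. The share of FZD6 in that sum was 59.5% ± 0.366 in siPRR11 and that of FZD7 6.46% ± 0.0569. The sum was slightly higher in both siPRR11 libraries, with more FZD6 and less FZD7 in it. These shares and sums were not tested and include the genes called above.

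The coreceptors showed no call. LRP6, which pairs with Frizzled in the canonical branch, had 98.1 and 117.8 CPM in siNC and 113.8 and 120.2 in siPRR11. The groups overlapped (log2 fold change 0.12 ± 0.0912, 95% interval -0.08 to 0.32, adjusted p = 0.431), and the fold change was 0.25 (adjusted p = 0.0372) without siNC 2 and -0.01 without siNC 1. LRP5, its relative, and LGR4, a receptor for the R-spondins that strengthen WNT signals, had log2 fold changes of -0.05 and -0.06, with intervals from -0.23 to 0.13 and from -0.26 to 0.14. Of these 3 genes, 0 passed the adjusted threshold, 0 had an unadjusted p under 0.05, and 0 were called by DESeq2, edgeR's exact test or limma.

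Dishevelled proteins carry the signal from the receptor into the cell. DVL2 (chromosome 17, 7225341 to 7234545, minus strand) fell, from 45.8 and 45.7 CPM in siNC to 32.6 and 35.7 in siPRR11 (log2 fold change -0.42 ± 0.0844, adjusted p = 0.00566). It was not past the threshold without siPRR11 1 (-0.35, adjusted p = 0.0894). DVL3 had 61.1 and 65.7 CPM in siNC and 54.4 and 52.5 in siPRR11 and stood just outside the threshold (-0.25 ± 0.0790, adjusted p = 0.0526). Its adjusted p was 0.0480 with DESeq2 and 0.0466 with edgeR's exact test. DVL1 had overlapping groups and a log2 fold change of -0.09. The summed Dishevelled RPKM was 27.99 ± 0.918 in siNC and 24.47 ± 0.704 in siPRR11.

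AXIN1, the scaffold on which the destruction complex forms, fell. AXIN1 (chromosome 16, 287440 to 352673, minus strand) had 48.9 and 56.5 CPM in siNC and 36.2 and 39.6 in siPRR11, with no overlap (log2 fold change -0.47 ± 0.0930, adjusted p = 0.00493). The call held with each library left out, with values from -0.58 to -0.37.

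GSK3B, the kinase of the complex that the study ties to PRR11 protein, showed no detectable difference at the RNA level. Its CPM was 39.3 and 47.7 in siNC and 40.7 and 42.5 in siPRR11, so both siPRR11 libraries lay between the siNC libraries. The log2 fold change was -0.06 ± 0.0982 (95% interval -0.28 to 0.15, adjusted p = 0.718) and ran from -0.20 without siNC 1 to 0.08 without siNC 2. By Western blot, the study reported less of a phosphorylated form of GSK3β protein after PRR11 silencing, which RNA levels do not measure. GSK3B lies on chromosome 3 from 119821323 to 120094417 on the minus strand. GSK3A, its paralog, had a log2 fold change of -0.01, and APC, the other large scaffold, -0.05, both with overlapping groups. An exon-level overlap with a gene on the same strand touches 11.6% of the exonic bases of GSK3A and 1.85% of those of APC.

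CTNNB1, which encodes β-catenin, had 104.5 and 106.3 CPM in siNC and 86.4 and 91.6 in siPRR11. CTNNB1 (chromosome 3, 41194837 to 41260096, plus strand) was lower in both siPRR11 libraries, at 84.5% of siNC (log2 fold change -0.24 ± 0.0742, adjusted p = 0.0430). Without siPRR11 1 the value was -0.20 (adjusted p = 0.382) and without siPRR11 2 it was -0.29 (0.142).

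AXIN2, the AXIN paralog that is itself a widely used target of β-catenin and TCF, was expressed at a low level. AXIN2 (chromosome 17, 65528563 to 65561647, minus strand) had 1.64 and 2.04 CPM in siNC and 1.14 and 1.31 in siPRR11. The groups did not overlap, but the difference did not pass the threshold (log2 fold change -0.58 ± 0.221, 95% interval -1.06 to -0.10, adjusted p = 0.0962). Without siNC 1 it passed (-0.74, adjusted p = 0.0425). A same-strand gene, CTD-2535L24.2, shares 25.2% of its exonic bases, so its counts are uncertain.

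Among the 4 TCF/LEF factors, the DNA-binding partners of β-catenin, LEF1 and TCF7 fell further than any other WNT gene past the threshold, TCF7L2 rose, and TCF7L1 did not pass the test. TCF7L2 made up 57.6% ± 2.94 of the summed RPKM in siNC, TCF7L1 26.5% ± 2.76, TCF7 11.7% ± 0.578 and LEF1 4.17% ± 0.398. RefSeq (GRCh38.p14) promoter windows, the 250 bases before an annotated start, were found for 33 of the 46 WNT genes (42 windows) and were searched on both strands for the TCF/LEF core motif in the letters NNCAAAG, where the first pair of letters is AA, AT, TA or TT. A match was present in 3 of the 42 windows (7.14%), against 12% of all 35116 windows, so the motif was not more frequent before WNT genes. The 3 windows belonged to DKK1, TCF7 and TCF7L2. The DKK1 window, which is not shown, holds 2 matches, ending 88 and 69 bases before the start. The windows of TCF7 and TCF7L2 are shown because these factors moved in opposite directions and each has a match to the letters that such factors bind, with the match in capitals. Both windows lie inside the gene, in no annotated exon of the files, before an internal start 8907 bases (TCF7) and 176383 bases (TCF7L2) downstream of the gene's first base. In TCF7 the match AACAAAG ends 43 bases before the start, and in TCF7L2 the match CTTTGTT, which is AACAAAG on the other strand, ends 126 bases before it.
TCF7, chr5:134123368-134123617, plus strand: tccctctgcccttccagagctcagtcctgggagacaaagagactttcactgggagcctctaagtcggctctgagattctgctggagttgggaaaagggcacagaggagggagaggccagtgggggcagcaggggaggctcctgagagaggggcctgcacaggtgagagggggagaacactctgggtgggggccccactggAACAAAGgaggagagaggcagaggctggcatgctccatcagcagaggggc
TCF7L2, chr10:113126383-113126632, plus strand: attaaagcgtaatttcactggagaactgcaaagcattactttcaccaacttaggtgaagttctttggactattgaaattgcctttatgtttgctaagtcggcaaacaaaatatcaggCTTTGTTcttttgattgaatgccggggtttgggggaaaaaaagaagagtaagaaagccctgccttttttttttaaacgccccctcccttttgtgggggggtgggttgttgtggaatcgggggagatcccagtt
The other RefSeq windows of these genes, 1 for TCF7 and 2 for TCF7L2, hold no match, among them the window just before the first base of TCF7L2. A match is a description of the sequence and does not show binding.

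LEF1 had the largest change of the 41 tested WNT genes, from a low level. LEF1 (chromosome 4, 108047545 to 108168956, minus strand) had 1.27 and 1.48 CPM in siNC and 0.446 and 0.374 in siPRR11. Both siPRR11 libraries were far below both siNC libraries, at 30.0% of siNC (log2 fold change -1.74 ± 0.282, adjusted p = 0.00168). The call held under every alternative tried, with values from -1.87 to -1.62 when a library was left out. The antisense gene LEF1-AS1 faces 5.20% of its exonic bases, and the strand setting of the counting is not given.

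TCF7 (chromosome 5, 134114711 to 134151865, plus strand), known from T cells and as a target of the pathway, had 7.46 and 7.09 CPM in siNC and 3.90 and 4.26 in siPRR11. The groups were well separated, at 56.0% of siNC (log2 fold change -0.84 ± 0.130, adjusted p = 0.00131). Leaving out a library gave values from -0.90 to -0.77, all past the threshold. TCF7L2 (chromosome 10, 112950250 to 113167678, plus strand), the main family member here, moved the other way, with 22.8 and 25.0 CPM in siNC and 28.5 and 30.2 in siPRR11 (log2 fold change 0.29 ± 0.0913, adjusted p = 0.0462). This call was the closest to the threshold and was lost without siNC 1 (0.23, adjusted p = 0.130), siPRR11 1 (0.34, 0.137) or siPRR11 2 (0.25, 0.318). TCF7L1, mostly described as a repressor, had 7.67 and 6.74 CPM in siNC and 5.37 and 6.42 in siPRR11 and did not pass the test (-0.29, 95% interval -0.59 to 0.00).

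The family total overlapped between the groups, at 6.06 ± 0.0728 RPKM in siNC and 6.27 ± 0.353 in siPRR11, while its composition differed. In siPRR11, TCF7L2 made up 70.6% ± 1.26 of it, TCF7L1 21.6% ± 1.47, TCF7 6.57% ± 0.0167 and LEF1 1.25% ± 0.225. The ratio of TCF7L2 to TCF7 RPKM was 4.57 and 5.27 in siNC and 10.9 and 10.6 in siPRR11, and that of TCF7L2 to LEF1 was 14.3 and 13.4 against 50.9 and 64.2. Both ratios were higher in both siPRR11 libraries. They rest on the same counts as the calls above and were not tested separately.

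**Figure D3:**
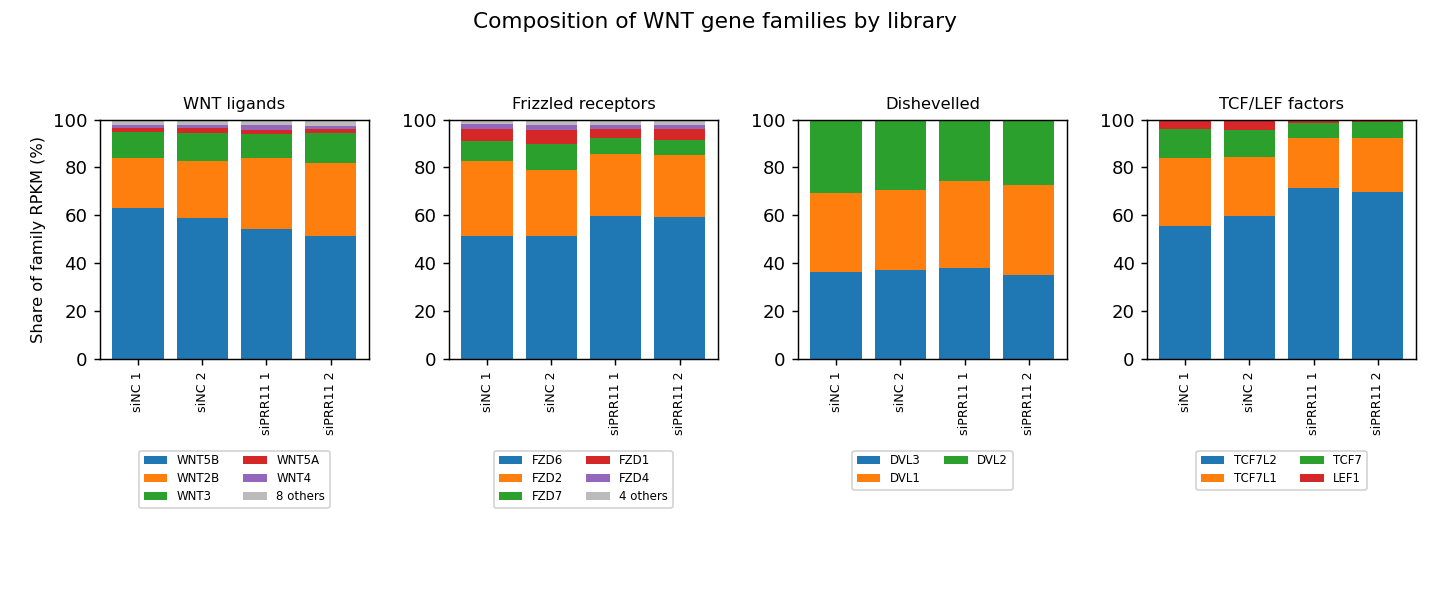
Stacked bars give, for each library, the share of the family's summed RPKM (percent) held by genes of 4 families. These are the WNT ligands, Frizzled receptors, Dishevelled and TCF/LEF families. Ligands and Frizzled receptors with the smallest shares in siNC are pooled in a grey bar. In siPRR11 the bars show a smaller share of WNT5B (52.7% against 61.0%), larger shares of FZD6 (59.5% against 51.3%) and TCF7L2 (70.6% against 57.6%), and smaller ones of TCF7 and LEF1.

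Secreted inhibitors bind WNT ligands or their receptors outside the cell. Of the 3 among the 47 genes, both well-expressed ones, DKK3 and SFRP1, fell. Among further secreted inhibitors in the wider list below, SFRP4 fell, and no such gene rose past the threshold. FRZB, with a mean of 0.238 CPM in siNC, lay higher without passing (1.17, adjusted p = 0.0622). DKK3, a Dickkopf family member whose action on WNT signalling is debated, made up 92.0% ± 0.433 of the summed RPKM of the 3 inhibitors in siNC and SFRP1 7.47% ± 0.437. DKK3 (chromosome 11, 11963106 to 12009769, minus strand) had 141.4 and 154.6 CPM in siNC and 112.6 and 127.9 in siPRR11 (log2 fold change -0.30 ± 0.0844, adjusted p = 0.0309). Each siPRR11 library was below each siNC library, but the call was lost without siNC 2 (-0.24, adjusted p = 0.0513) or siPRR11 1 (-0.21, 0.335).

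SFRP1 (chromosome 8, 41261958 to 41309497, minus strand), a decoy that binds WNT ligands and is known for its loss in renal tumours, had 10.3 and 12.3 CPM in siNC and 7.11 and 7.72 in siPRR11. It stood at 65.5% of siNC (log2 fold change -0.61 ± 0.123, adjusted p = 0.00583) and passed with each library left out. DKK1, which blocks LRP6, had 0.379 and 0.414 CPM in siNC and 0.637 and 0.491 in siPRR11 and did not pass (0.51, adjusted p = 0.365). The summed RPKM of the 3 inhibitors was 31.28 ± 2.10 in siNC and 26.0 ± 2.16 in siPRR11, nearly all of it DKK3.

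The 4 inhibitors that act in the membrane or the cell showed no call. RNF43 and ZNRF3, ligases that remove Frizzled from the surface, had log2 fold changes of 0.26 and -0.11, and NKD1 and NKD2, which bind Dishevelled, of -0.32 and -0.24. The groups overlapped for all 4. Of these genes, 0 passed the adjusted threshold, 0 had an unadjusted p under 0.05, and 0 were called by DESeq2, edgeR's exact test or limma.

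**Figure D4:**
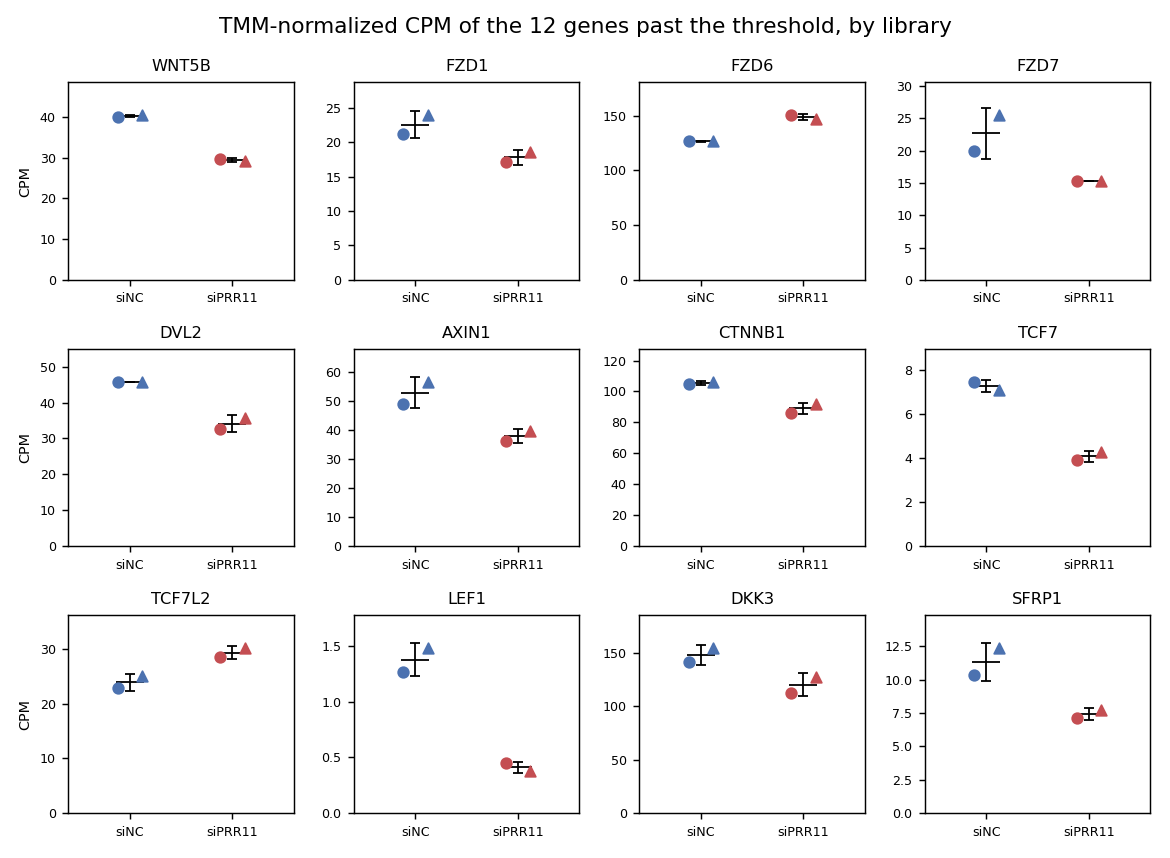
Each panel is 1 of the 12 WNT genes past the threshold. The vertical axis is TMM-normalized CPM from 0, points are libraries (circles replicate 1, triangles replicate 2), and bars are the group mean ± SD (n = 2). In each panel the siNC and siPRR11 points do not overlap, and LEF1 shows the widest relative gap (30.0% of siNC).

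A wider list of 70 other pathway genes (further ligands, R-spondins, polarity genes, casein kinases, corepressors and coactivators) moved near the background. Values were read for 64, and 53 were tested. Of these, 10 passed (18.9%, beside the 16.7% of all genes), 4 higher and 6 lower, with a median log2 fold change of -0.0507.

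TNIK, a kinase that acts on TCF7L2 with β-catenin, had 27.5 and 30.5 CPM in siNC and 13.1 and 11.6 in siPRR11 (log2 fold change -1.23 ± 0.103, adjusted p = 2.33e-05). BCL9, which links β-catenin to Pygopus, had 28.0 and 31.8 against 15.7 and 15.3 CPM (-0.94 ± 0.0972, adjusted p = 0.000104), whereas its relative BCL9L did not pass (0.10, adjusted p = 0.404). For both genes the siPRR11 libraries lay well below the siNC libraries, at 42.6% and 51.9% of siNC. SFRP4, a secreted decoy, had 14.9 and 12.02 against 8.32 and 6.99 CPM (-0.82 ± 0.133), and AMER1, a membrane partner of APC, 8.04 and 10.9 against 5.16 and 6.15 CPM (-0.74 ± 0.156). PYGO1, a Pygopus gene, fell by 0.70 and KREMEN1, a receptor for Dickkopf proteins, by 0.43 on the log2 scale. PYGO1 was -0.44 without siNC 2, and KREMEN1 lost the call without siPRR11 1 (-0.35, adjusted p = 0.226). PYGO2, the paralog of PYGO1, was above its siNC level in both siPRR11 libraries and did not pass (0.24, adjusted p = 0.0998).

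TLE5 (listed under its older symbol AES), TLE3, PRICKLE1 and CELSR1 rose. TLE5, a short relative of the TLE corepressors, had 60.4 and 53.6 CPM in siNC and 88.1 and 82.7 in siPRR11 (0.58 ± 0.0841, adjusted p = 0.000831). TLE3, a corepressor that binds TCF factors, had 16.1 and 15.4 against 21.3 and 19.5 CPM (0.37 ± 0.0969, adjusted p = 0.0215). The polarity genes PRICKLE1 and CELSR1 had log2 fold changes of 0.35 ± 0.10 and 0.26 ± 0.0739. TLE3, PRICKLE1 and CELSR1 lost the call without at least 1 siPRR11 library: TLE3 was 0.31 (adjusted p = 0.237) and CELSR1 0.28 (0.162) without siPRR11 1, PRICKLE1 was 0.29 (0.163) and CELSR1 0.23 (0.280) without siPRR11 2, and PRICKLE1 was 0.20 (0.129) without siNC 1. Exons on the opposite strand face 28.7% of the exonic bases of PRICKLE1 and 10.6% of those of TLE5.

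Among 28 widely used targets of β-catenin and TCF, 25 were tested, and 9 fell (36%, beside 9.14% of all genes). Of the 15 targets whose log2 CPM averaged 1 or more, 8 passed, beside 23.1% of such genes called in either direction. The list was chosen with earlier results of these data known, so these shares are descriptive. Of the targets, 0 rose by edgeR's quasi-likelihood test and 0 by DESeq2 or limma. BMP4, a secreted signal, came closest, with 1.68 and 1.41 CPM in siNC and 2.37 and 2.34 in siPRR11 (0.60 ± 0.192, adjusted p = 0.0535). It was the 1 target above 0 at an unadjusted p under 0.05, and it passed with edgeR's exact test (adjusted p = 0.0251), with no filter on low counts (0.0252) and without siNC 1 (0.73, 0.0307). The median log2 fold change was -0.445. This list includes LEF1 and TCF7, and without the 7 genes that are also in the WNT list, 7 of 18 tested fell (38.9%). The 4 largest falls were those of LEF1, MYC, TCF7 and EPHB2.

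MYC, a growth regulator with many inputs besides WNT, had 73.5 and 81.0 CPM in siNC and 39.0 and 44.5 in siPRR11 (log2 fold change -0.89 ± 0.0901, adjusted p = 9.23e-05). EPHB2, an ephrin receptor, had 96.4 and 108.3 against 58.0 and 57.2 CPM (-0.83 ± 0.0814, adjusted p = 7.54e-05). Both genes were clearly separated between the groups. SLC7A5, CD44, FOSL1 and SOX4 also fell, with log2 fold changes from -0.63 to -0.46. CCND1, a driver of the G1 phase, was past the threshold as well (-0.73 ± 0.208, adjusted p = 0.0326), but its libraries differed widely within each group, with 142.8 and 237.1 CPM in siNC and 90.9 and 138.1 in siPRR11. Its fold change was -0.32 (adjusted p = 0.0546) without siNC 2, -0.46 without siPRR11 1, -1.05 without siNC 1 and -1.06 without siPRR11 2, and DESeq2 and limma did not call it, with adjusted p-values of 0.295 by DESeq2 and of 0.212 and 0.193 by limma. Of the targets known as feedback genes or direct readouts of the pathway, LEF1 and TCF7 fell (-1.74 and -0.84, as given above). AXIN2, NKD1, RNF43, ZNRF3, SP5, NOTUM and DKK1 did not pass the test, and all but ZNRF3 had mean levels under 3 CPM.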

How the data were processed

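According to the study's methods and the submitters' processing notes, stranded libraries made from 2 µg of RNA were sequenced on a DNBSEQ-T7 instrument, reads were trimmed with Trimmomatic 0.36, aligned to GRCh38 with STAR and counted per gene with featureCounts (Subread 1.5.1). The annotation release, strand setting and handling of reads with several matches are not given in the sources used here. The authors deposited raw counts per gene and RPKM values, which equal count over exonic length and library total to within 3.08e-06% over 15916 genes. Among counts of 1 to 10, between 78.4% and 80.3% per library are even, so both mates of a fragment may have been counted.

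Counts were tested with edgeR 4.0.16 (R 4.3.3; TMM, filterByExpr, condition only) on 21630 of 36359 genes, with Benjamini-Hochberg adjustment and a threshold of 0.05. SE is the log2 fold change divided by the square root of F. CPM, shares, sums and ratios are descriptive, and RPKM carries no TMM scaling. Intervals cover 95%. Common biological variation between libraries of a group was 0.0856, and the libraries of a group differed beyond counting error (chi-square per degree of freedom of 19.0 for siNC, 12.9 for siPRR11). The test was repeated with DESeq2 1.42.0, with RLE normalization, with edgeR's exact test, without a filter, with a minimum of 10 counts per library, with replicate number as a block, with limma 3.58.1 on log2(RPKM + 1) or log2(RPKM + 0.1), without each library and, chosen after seeing the data, on halved counts. The scripts were tested on simulated data.

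Genes and lists were chosen with earlier results of these data known. Genes were given in full if past the threshold with groups that did not overlap, plus CTNNB1, GSK3B, AXIN2 and LRP6. Of the other lists, the 4 largest rises and falls past the threshold were named. PYGO1, PYGO2, KREMEN1, BCL9L, FRZB, BMP4 and the further targets were named after their values were seen.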

Additional observations from a re-analysis of the deposited data

How the results depend on the processing

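Of the 41 tested WNT genes, 12 passed the threshold, and between 12 and 13 did with RLE normalization, DESeq2, edgeR's exact test, no filter, at least 10 counts in every library and halved counts. With limma on log2(RPKM + 1) 4 passed, and with log2(RPKM + 0.1) 4 passed. For the other pathway genes the count of 10 became 3 and 4, and for all genes 3622 became 1775 and 1878, with 61.5% and 61.3% of the called genes higher, against 45.4% by edgeR. For the targets, the count of 9 stayed between 7 and 12 in all alternatives. Leaving out a library gave between 6 and 13 WNT genes, 7 and 11 other pathway genes, 9 and 11 targets and 2172 and 4590 of all genes, with the fewest WNT genes (6) without siPRR11 1, when all genes called were 2172, and 2393 genes without siPRR11 2. A fit without a library leaves 1 library in a group, which is then taken to vary like the other group. The cause of these differences was not tested.

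Labels give both groups the numbers 1 and 2 but do not say that a number marks a shared culture or batch. Deviations of samples with the same number correlated at 0.328 over genes, with only 2 pairs. With the replicate block, 18 WNT genes passed (3 higher, 15 lower), the 6 added being WNT2B (adjusted p = 0.0140), WNT3 (0.0326), FZD3 (0.0491), DVL3 (0.00152), AXIN2 (0.0191) and TCF7L1 (0.0221). It called 19 other pathway genes, 12 targets, BMP4 among them, and 6988 of all genes; PRR11 had a log2 fold change of -1.48.

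Some genes that were not called changed sign. With a library left out, WNT4 ran from -0.19 to 0.50, WNT5A from -0.51 to 0.0084, PORCN from -0.26 to 0.50, LRP6 from -0.012 to 0.25, APC from -0.14 to 0.032, GSK3A from -0.066 to 0.040, GSK3B from -0.20 to 0.077, ZNRF3 from -0.25 to 0.019 and NOTUM from -0.90 to 0.34. GSK3A was 0.027 with log2(RPKM + 1) and 0.033 with log2(RPKM + 0.1) in limma, against -0.01. No WNT gene past the threshold, and no other named gene past it, reversed in any alternative. Over the WNT genes, settings other than leaving out a library gave 333 values on the same side of 0 and of the threshold, 16 calls lost, 9 gained and 2 reversed signs. The median over all genes moved by less than 0.1 in every setting. Depth limits the 5 untested ligands and the genes under 1 CPM.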
